A study of Mus musculus with 2 samples.

Results

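Open chromatin was described at 7 mouse genes of the natural killer T (NKT) cell programme, chosen by name from 21938 protein-coding genes. They were the transcription factor genes Zbtb16 and Tbx21, the receptor genes Slamf1, Slamf6 and Ly9 of the SLAM family, the adaptor gene Sh2d1a, and the antigen-presenting gene Cd1d1. Every DNase I peak and footprint whose midpoint lay in a gene body or within 50 kb of it was taken, which gave 176 of 132737 peaks and 461 of 375374 footprints in replicate 1. In replicate 2 the same windows held 81 of 69798 peaks and 156 of 210014 footprints. The comparison set the 2 factors against the 5 genes of SLAM signalling and lipid presentation, in each replicate.

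DNase-seq maps how often DNase I cuts each stretch of DNA in nuclei: a peak is a stretch cut more than its surroundings, and a footprint is a short stretch inside such a region that is cut less than its flanks. The 2 libraries came from whole thymus tissue of untreated B6CASTF1/J female mice, the F1 hybrid of C57BL/6J and CAST/EiJ, at 10 days of age. The labels number the females 5 and 6 and give both the same donor identifier, and they name no treatment, control or sorted cell type. The libraries are therefore replicates of 1 group, and no test between conditions was possible.

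NKT cells are T cells that recognise lipids held by CD1d, a protein related to the classical antigen-presenting molecules. In the thymus they are selected by other thymocytes, which display CD1d and engage SLAM receptors on the developing cell, and the adaptor SAP, the product of Sh2d1a, passes the SLAM signal on through the kinase Fyn. PLZF, the product of Zbtb16, then directs the innate-like programme, and T-bet, the product of Tbx21, that of the interferon-producing NKT1 subset, while most thymocytes express CD1d and several SLAM receptors without becoming NKT cells.

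The sequences below show promoters from both sides of the comparison. For 5 of the genes they also show the peak away from gene starts with the highest mean height over the 2 replicates. They were read from the GRCm38.p6 assembly (mm10) on the plus strand within the replicate 1 peak, with untranslated and coding bases left out. The promoter of Tbx21, with a low peak, stands beside those of Slamf6 and Sh2d1a, with high ones, and capitals mark bases inside footprints of both replicates.

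Tbx21 promoter, chr11:97115332-97115460: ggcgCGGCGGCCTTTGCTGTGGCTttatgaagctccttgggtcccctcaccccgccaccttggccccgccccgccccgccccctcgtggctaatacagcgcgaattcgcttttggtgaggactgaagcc
Slamf6 promoter, chr1:171919301-171919491: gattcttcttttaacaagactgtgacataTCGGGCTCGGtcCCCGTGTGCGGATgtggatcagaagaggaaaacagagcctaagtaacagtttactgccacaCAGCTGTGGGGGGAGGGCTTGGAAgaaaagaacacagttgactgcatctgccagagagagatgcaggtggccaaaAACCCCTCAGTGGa
Sh2d1a promoter, chrX:42502301-42502452: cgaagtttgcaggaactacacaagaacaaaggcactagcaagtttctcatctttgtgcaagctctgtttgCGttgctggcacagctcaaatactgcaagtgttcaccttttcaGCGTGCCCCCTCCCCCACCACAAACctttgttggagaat
Slamf1 intron, chr1:171782581-171782820: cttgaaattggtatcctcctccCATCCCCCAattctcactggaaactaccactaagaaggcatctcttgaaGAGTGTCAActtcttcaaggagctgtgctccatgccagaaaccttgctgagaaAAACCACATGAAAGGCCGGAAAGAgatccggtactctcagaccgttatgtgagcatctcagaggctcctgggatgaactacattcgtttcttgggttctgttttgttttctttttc
Zbtb16 downstream, chr9:48646301-48646500: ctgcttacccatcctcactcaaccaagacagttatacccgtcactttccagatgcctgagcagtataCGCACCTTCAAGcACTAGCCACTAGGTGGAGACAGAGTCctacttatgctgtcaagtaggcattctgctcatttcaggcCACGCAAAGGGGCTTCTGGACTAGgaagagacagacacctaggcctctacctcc
Tbx21 gene body, chr11:97101801-97101943: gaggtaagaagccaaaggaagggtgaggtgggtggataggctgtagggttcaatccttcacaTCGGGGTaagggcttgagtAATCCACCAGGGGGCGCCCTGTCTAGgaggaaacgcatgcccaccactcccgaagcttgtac
Ly9 downstream, chr1:171566941-171567140: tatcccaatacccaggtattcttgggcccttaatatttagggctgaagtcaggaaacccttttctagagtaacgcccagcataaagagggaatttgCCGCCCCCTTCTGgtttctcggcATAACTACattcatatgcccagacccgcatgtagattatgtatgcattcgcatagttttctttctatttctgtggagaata
Sh2d1a downstream, chrX:42540821-42541000: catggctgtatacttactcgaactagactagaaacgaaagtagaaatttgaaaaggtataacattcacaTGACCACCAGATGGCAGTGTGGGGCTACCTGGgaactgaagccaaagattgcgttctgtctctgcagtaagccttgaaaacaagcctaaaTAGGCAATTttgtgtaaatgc

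The promoter stretch of Tbx21 is rich in C, G and CG pairs. Near Zbtb16, Tbx21 and Sh2d1a, the footprinted stretch of the distal peak holds a core pattern of the insulator protein CTCF, which is described with its background at the end.

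All 7 genes had a promoter peak, a peak within 500 bp of any annotated transcription start, in both replicates. Over all protein-coding genes the share was 63.4% in replicate 1, 57.8% in replicate 2 and 57.2% in both. Heights are given as multiples of the median height of all peaks of the library, with the mean ± SD over the 2 replicates. In bulk tissue, fewer cells with an open site and less cutting per cell cannot be told apart in these heights.

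The factor genes had the lowest promoter peaks of the 7. Zbtb16 (ENSMUSG00000066687, chr9:48654297-48836222, minus strand) reached 1.06 in replicate 1 and 0.594 in replicate 2 (0.825 ± 0.326, n = 2). The peak spanned 260 bp in replicate 1 and 134 bp in replicate 2, over the first exon and the bases upstream of it. Tbx21 (ENSMUSG00000001444, chr11:97098071-97115331, minus strand) reached 1.27 and 0.636 (0.952 ± 0.447, n = 2), again with a narrower peak, 136 bp against 260 bp, in replicate 2. Both factor promoters thus lay just above the typical peak of replicate 1 and below that of replicate 2.

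The SLAM receptor genes, which lie in a cluster on chromosome 1, had higher promoter peaks. Slamf6 (Ly108, chr1:171917515-171953170, plus strand) was the highest of the 7 genes, at 10.8 in replicate 1 and 7.85 in replicate 2 (9.34 ± 2.1, n = 2). Slamf1 (CD150, chr1:171767127-171801184, plus strand) reached 5.75 and 2.27 (4.01 ± 2.46, n = 2). Ly9 (CD229, chr1:171588624-171607410, minus strand) reached 4.94 and 2.31 (3.63 ± 1.86, n = 2). In both libraries Slamf6 stood above the other SLAM receptors at its internal start, though not at its first, and Slamf1 and Ly9 differed by less than the spread between replicates.

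Sh2d1a (chrX:42502453-42529330, plus strand), the gene of the adaptor SAP, stood at 5.14 and 3.48 (4.31 ± 1.17, n = 2). Cd1d1 (chr3:86995834-86999441, minus strand), which encodes CD1d, stood at 6.92 and 3.63 (5.27 ± 2.32, n = 2). The values of Sh2d1a, Slamf1, Ly9 and Cd1d1 overlapped across the replicates, so their order is not resolved with 2 libraries. With the highest peak at any start of a gene, the 2 factors and the 5 other genes did not overlap on this scale, since the highest factor value was 1.27 and the lowest of the others 2.27. With first starts alone they did, through Slamf6.

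**Figure D1:**
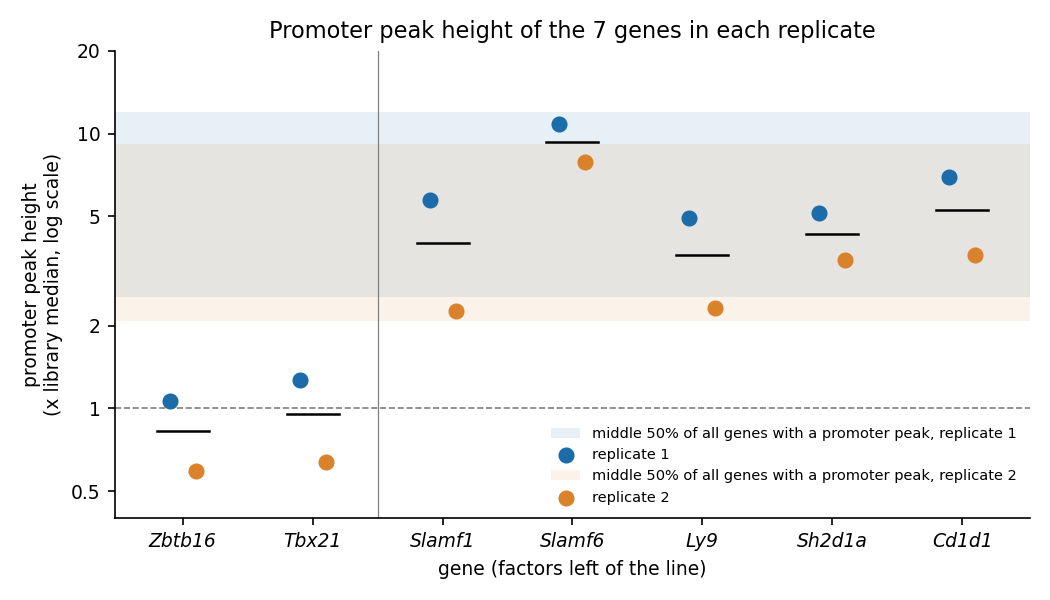
Height of the highest promoter peak of each of the 7 genes (vertical axis, multiples of the library's median peak height, log scale), with a point for each replicate and a bar at the mean of both. Bands show the middle 50% of all protein-coding genes with a promoter peak: the points of Zbtb16 and Tbx21 lie below both bands, and those of the 5 other genes lie within the band of their replicate.

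Within each library, the lowest of the 5 other promoters was 3.9 times as high as the higher factor promoter in replicate 1 and 3.56 times as high in replicate 2. In replicate 1 all 7 promoters stood at or above the library median, where 55.3% of all genes did. In replicate 2 the 5 SLAM and CD1d genes did and the factors did not, against 50.5% of all genes and 50.4% in both replicates. A promoter at least as high as the lowest of those 5 genes in both replicates was found at 38.2% of all genes, so such heights are common.

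The choice of start mattered for Slamf6. Its highest promoter peak, chr1:171919301-171919540, covers an internal annotated start at base 171919492 and overlaps the end of the antisense transcript Gm37065. At the first start of the gene, base 171917515, the peak stood at 3.96 and 1.24. Slamf6 was then the lowest of the 3 SLAM receptor genes in both libraries, and its 1.24 in replicate 2 lay below the 1.27 of Tbx21 in replicate 1. With the first start alone, the lowest of the 5 promoters was 3.12 and 1.96 times as high as the higher factor promoter. DNase-seq carries no strand, so the Slamf6 peak and the antisense transcript cannot be told apart.

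In the authors' deposited unit, the heights were 0.66 and 0.492 at Zbtb16 and 0.793 and 0.527 at Tbx21. They were 6.77 and 6.51 at Slamf6, 3.6 and 1.88 at Slamf1, 3.09 and 1.92 at Ly9, 3.21 and 2.89 at Sh2d1a, and 4.33 and 3.01 at Cd1d1. Every member was therefore lower in replicate 2 on the deposited scale too, least so at Slamf6.

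Promoter peak height varied with base composition over all genes, so the members were also placed among promoters of like base composition. Promoters were called CpG-rich where the 1 kb around the first start had over 50% G and C and an observed over expected CpG ratio over 0.6, which held for 9735 genes. Zbtb16 (ratio 0.677, 68.5% G and C) and Tbx21 (0.763, 65.0%) were CpG-rich. The 5 other genes were CpG-poor, with ratios of 0.151 at Slamf1, 0.213 at Ly9, 0.249 at Slamf6, 0.296 at Sh2d1a and 0.493 at Cd1d1.

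Among CpG-rich genes, 93.2% had a promoter peak in replicate 1 and 88.9% in replicate 2, with medians over all of them of 8.07 and 5.35. Zbtb16 stood at percentile 14.7 and 14.3 of that class, and Tbx21 at 15.9 and 14.8. Among the 12203 CpG-poor genes, 39.6% and 33% had a promoter peak. There Slamf6 stood at percentile 94.2 and 95.0, Cd1d1 at 88.1 and 86.8, Sh2d1a at 83.9 and 86.3, Slamf1 at 85.4 and 81.8, and Ly9 at 83.5 and 82.0. The Slamf6 percentiles use the peak at its internal start, while its class comes from the first start. At that first start its peak stood at 3.96 and 1.24, and the percentile of these heights was not computed. Among all genes the factors lay nearer the middle, at 45.1 and 45.4 for Zbtb16 and 46.4 and 45.9 for Tbx21, because many genes have no promoter peak. With the highest peak at any start, the factor genes were thus low for CpG-rich promoters and the 5 others high for CpG-poor ones. Each gene stood at close to the same percentile in both replicates.

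**Figure D2:**
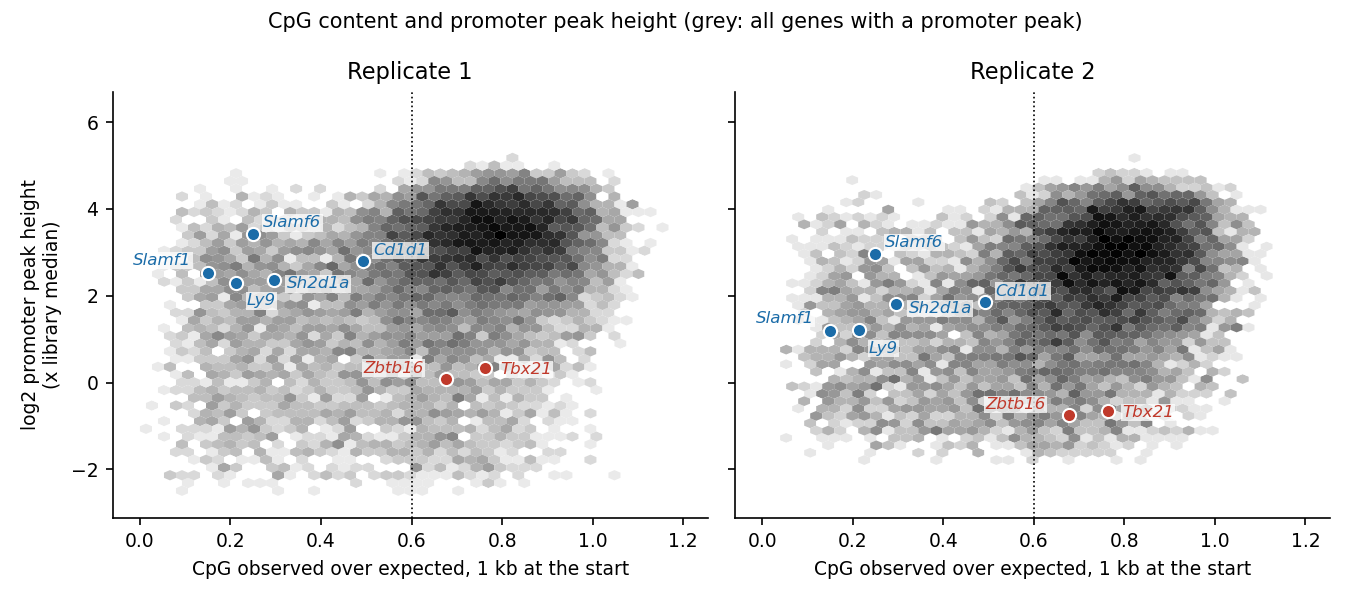
CpG observed over expected ratio of the 1 kb around the first start (horizontal axis) and height of the highest promoter peak at any start (vertical axis, log2 of the multiple of the library median), for all genes with a promoter peak as grey density and the 7 genes as points, by replicate. Zbtb16 and Tbx21 lie right of the dotted line at 0.6 and under most genes there, while the 5 other genes lie left of it at greater heights.

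A separate deposited list, which holds bases whose cutting exceeds background at a false discovery rate (FDR) of at most 0.05, gave the extent of cutting. Within 500 bp of the first start, 27.9% of bases were listed at Zbtb16 in replicate 1 and 11.5% in replicate 2. At Tbx21 all bases, 100%, were listed in replicate 1 but 13.5% in replicate 2. For the 5 other genes the share ran from 77.7% to 100% in replicate 1 and from 34.8% to 71.8% in replicate 2. Over all genes the median length listed was 478 bp in replicate 1 and 193 bp in replicate 2. Zbtb16 stood at percentile 46.5 and 48.5 of all genes on this measure, and in replicate 2 Tbx21 stood at 48.9 and the 5 others between 53.6 and 66.9. In replicate 1, however, Tbx21 stood at 85.2, level with Slamf6 and Cd1d1. Slamf1 (57.0), Ly9 (60.2) and Sh2d1a (61.7) lay below it there. In replicate 1 Tbx21 had cutting above background over the whole start region with a low peak on it, and Zbtb16 did not. The stricter peak file of each library kept the promoter peaks of all 7 genes in replicate 1, and in replicate 2 kept those of the 5 other genes but not of Zbtb16 or Tbx21.

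Footprints were found near a start of every member in both replicates, against 60.7% and 56.5% of all genes and 55.9% in both. Within 500 bp of the starts there were 3 and 2 footprints at Zbtb16 (2 annotated starts) and 6 and 2 at Tbx21 (1 start). There were 19 and 9 at Slamf6 (7 starts), 7 and 6 at Slamf1 (2 starts) and 10 and 4 at Ly9 (5 starts). Sh2d1a (7 starts) had 10 and 4, and Cd1d1 (5 starts) had 9 and 7. More bases were searched at genes with more starts spread apart, so these counts are not on equal lengths.

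Over the whole windows the contrast was smaller than at the promoters. The windows of Zbtb16 and Tbx21 held 13.5 peaks per 100 kb in replicate 1 and 7.52 in replicate 2, and those of the 5 other genes 19.7 and 8.24. The ratio of the factors to the others was 0.686 and 0.912 (mean 0.799), so the densities were close in replicate 2. For footprints the densities were 32.1 against 53.8 per 100 kb in replicate 1 and 11.8 against 17.6 in replicate 2, ratios of 0.596 and 0.669 (mean 0.632).

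Counting peaks within the gene bodies alone, the factors had 8.03 and 3.51 peaks per 100 kb against 31.1 and 15.1, ratios of 0.258 and 0.232. Most of that length was the body of Zbtb16, which held 12 peaks in replicate 1 and 6 in replicate 2, against 4 and 1 in that of Tbx21. Counting peaks at or above the library median height, the factor windows held 5.26 and 1.25 per 100 kb against 12.3 and 3.88, ratios of 0.428 and 0.323. For peaks over 1 kb from any start the ratios were 0.674 and 1.1, and the value of replicate 2 was 0.653 without 11 very low peaks in the Zbtb16 window.

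**Figure D3:**
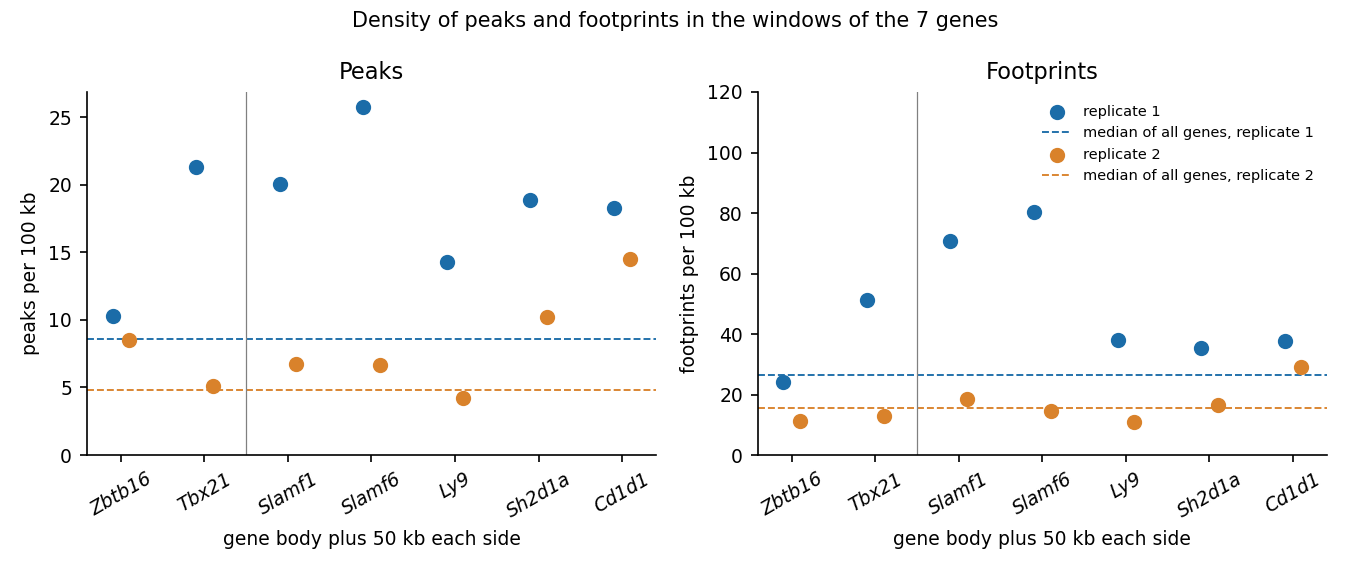
Peaks (left) and footprints (right) per 100 kb in the window of each of the 7 genes, with a point for each replicate and dashed lines at the medians over all protein-coding genes. In replicate 1 the peak density of all 7 genes lies above the median of 8.56, and in replicate 2 that of Ly9 lies below the median of 4.84.

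By gene, the Zbtb16 window held 29 peaks in replicate 1 and 24 in replicate 2, at percentiles 58.4 and 71.6 of peak density among all genes. The replicate 2 count includes 11 very low peaks between 0.0769 and 0.168 of the median height, at chr9:48632916-48638860, a span of 5.95 kb downstream of the gene where replicate 1 had no peak and no base in its FDR list. No other member window had a peak under 0.2 of the median in either replicate, and without these peaks the density ratio of replicate 2 was 0.578 in place of 0.912 and the percentile of Zbtb16 48.4 in place of 71.6. The Tbx21 window held 25 peaks and then 6 (percentiles 90.2 and 51.9), so that it was among the densest in replicate 1 and in the middle in replicate 2. Its highest peak, at 5.61 and 3.52, lay 49 bp from a start of the neighbour Osbpl7 and not at Tbx21.

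The Slamf6 window was the densest in replicate 1, with 35 peaks against 9 in replicate 2 (percentiles 94.6 and 61.6). Of the 35, 12 had their midpoint within 5 kb of the first start, and 4 of these 12 were found in replicate 2, where a peak is found if a peak of the other library overlaps it by at least 1 bp. The Slamf1 window held 27 and 9 peaks (percentiles 88.4 and 62.2) and the Ly9 window 17 and 5 (74.6 and 45.7). The Sh2d1a window held 24 and 13 (86.3 and 78.6), and the Cd1d1 window 19 and 15 (85.2 and 90.1). Of the 5 genes beside the factors, Cd1d1 alone ranked higher in replicate 2 than in replicate 1, with 8 and 6 of its peaks within 5 kb of the start. Some listed peaks of replicate 1 overlap each other. Joined where they did, they made 15 regions at Cd1d1 in both replicates, 22 and 13 at Sh2d1a, and 24 and 6 at Tbx21. The percentiles here are of listed peaks. With joined regions the density ratio of the factors to the others was 0.708 and 0.912.

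Footprints by window numbered 68 and 32 at Zbtb16, 60 and 15 at Tbx21, 95 and 25 at Slamf1, 109 and 20 at Slamf6, 45 and 13 at Ly9, 45 and 21 at Sh2d1a, and 39 and 30 at Cd1d1. The number in replicate 2 was the smallest share of that in replicate 1 at Slamf6 and the greatest at Cd1d1. In replicate 2 the footprint density of Zbtb16, Tbx21, Slamf6 and Ly9 lay below the median of all genes, 15.7 per 100 kb.

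High peaks were also unevenly spread over the windows. Peaks at least 2 times the median height numbered 3 in replicate 1 and 0 in replicate 2 at Zbtb16, and 4 and 1 at Tbx21. They numbered 16 and 3 at Slamf6, 10 and 3 at Slamf1, 4 and 1 at Ly9, 6 and 1 at Sh2d1a, and 8 and 2 at Cd1d1. Ly9 thus equalled Tbx21 in this count, and Zbtb16, with the longest window at 281926 bp, had the fewest in both replicates. The counts are not scaled to window length, which was shortest at Cd1d1, at 103608 bp. Pooled over the windows, 29 of 176 peaks of replicate 1 stood between 2 and 4 times the median and 22 at 4 times or more. Over the genome 19247 and 18945 of 132737 did, so the pooled windows were close to all peaks in these shares. The genome share was not computed for replicate 2.

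The FDR list covered 3.75% of the bases of the Zbtb16 window and 6.86% of the Tbx21 window in replicate 1. In the other windows of that replicate the share was lowest at Ly9, with 5161 of 118787 bp (4.34%), and highest at Slamf6, with 16313 of 135656 bp. In replicate 2 it was 1.84% and 1.51% at the factors, and ran from 0.954% at Ly9 to 3.11% at Cd1d1. The 2 factor windows therefore lay within the range of the others in replicate 2, and Zbtb16 lay below it in replicate 1.

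**Figure D4:**
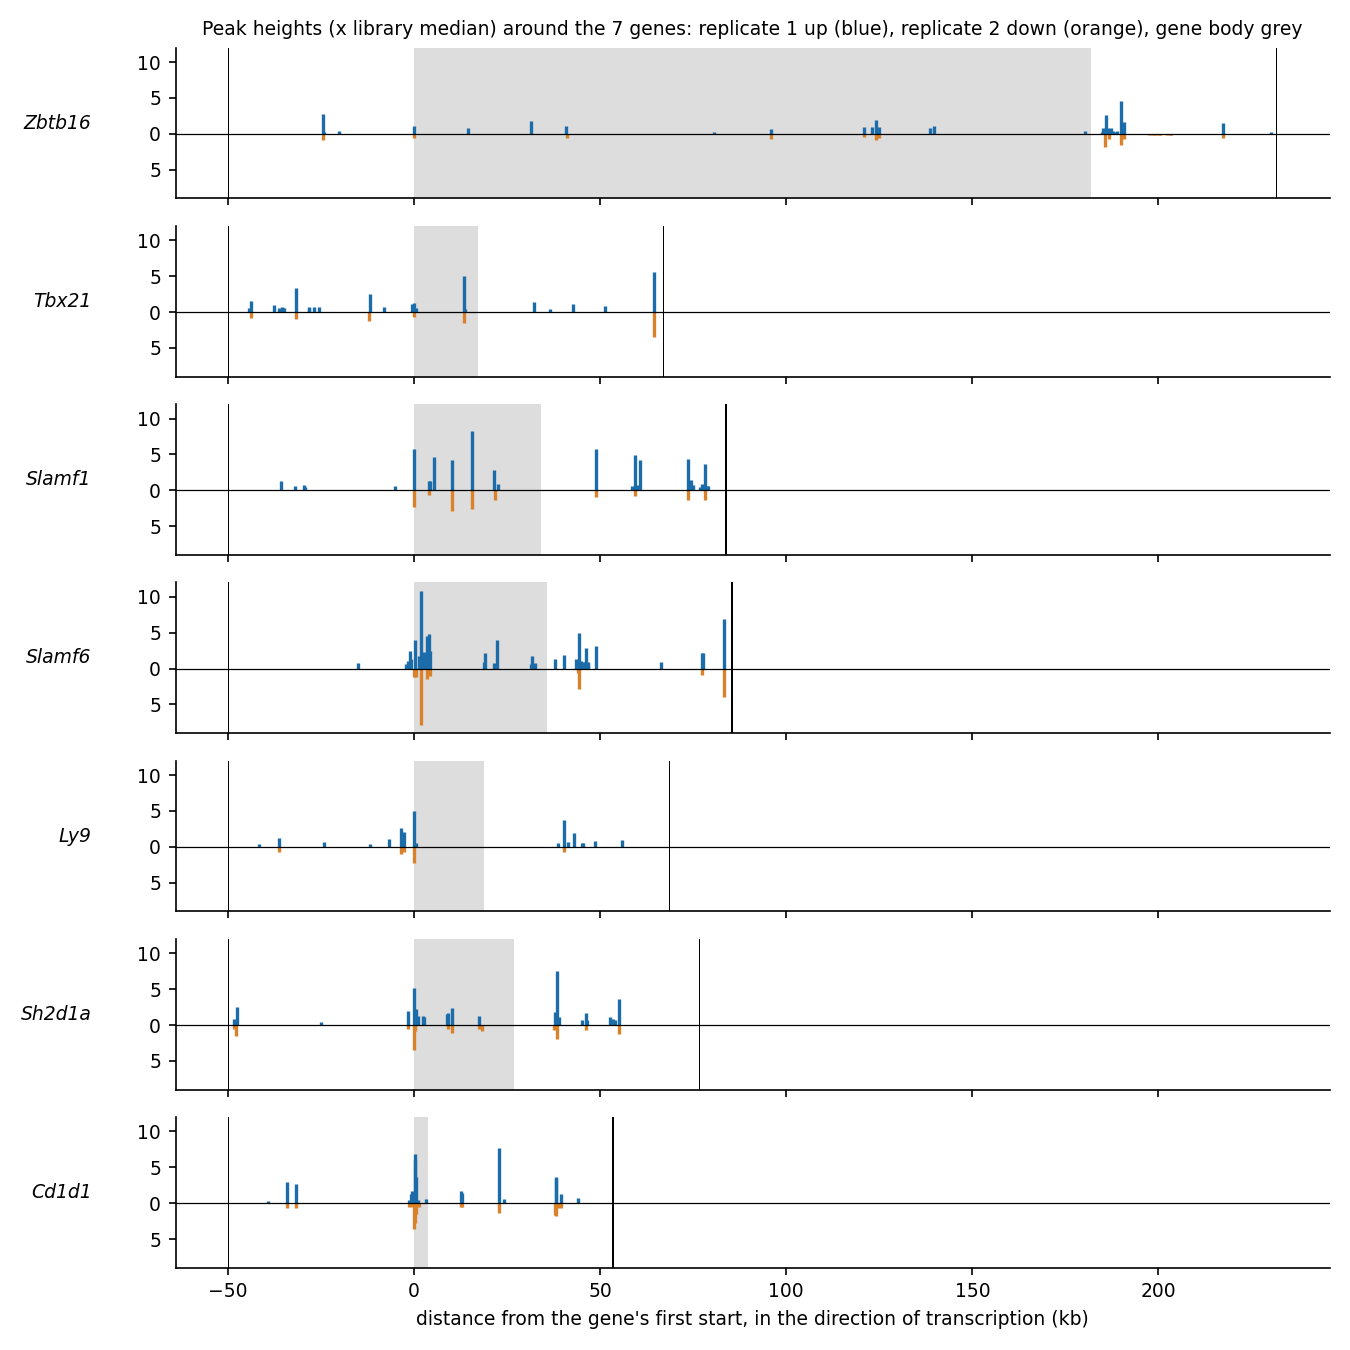
Peaks of the 7 windows by the distance of their midpoint from the gene's first start (horizontal axis, kb, in the direction of transcription), with height as a multiple of the library median upward for replicate 1 and downward for replicate 2. Grey marks the gene body and black lines the window's ends; the promoter peak is among the highest at Slamf1, Slamf6, Ly9, Sh2d1a and Cd1d1, while the highest peaks of Zbtb16 lie downstream of the gene.

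Away from starts, the factor genes did have peaks above their own promoters. The one with the highest mean at Zbtb16, chr9:48646301-48646500, lay 7896 bp past the 3′ end and stood at 4.63 in replicate 1 and 1.54 in replicate 2. A second, chr9:48650321-48650580, lay 3846 bp past that end and stood at 2.69 and 1.83, so that it was the higher in replicate 2. The peak 24459 bp upstream, chr9:48860581-48860780, stood at 2.74 and 0.818. All 3 exceeded the Zbtb16 promoter in the same replicate, and at the first 3 of 4 replicate 1 footprints overlapped a footprint of replicate 2. The nearest protein-coding start to both downstream peaks was that of Nnmt, so their assignment to Zbtb16 is by the window alone.

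The highest distal peak at Tbx21, chr11:97101801-97101980, lay 13440 bp into the gene across the edge of an intron and a coding exon, at 4.96 and 1.48. A peak 11980 bp upstream of the start, chr11:97127201-97127420, stood at 2.47 and 1.31. The peak at chr11:97146841-97147040, at 3.35 and 0.902, lay in an intron of the neighbour Tbkbp1. Each of these was higher than the Tbx21 promoter in both replicates.

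Among the SLAM receptors, the distal peak of Slamf1 with the highest mean, chr1:171782581-171782820, lay in an intron 15574 bp from the start, and at 8.32 and 2.64 it exceeded the Slamf1 promoter in both replicates. In replicate 2 a peak over a coding exon, chr1:171777061-171777360, was higher, at 4.19 and 2.88. The highest at Slamf6, chr1:172000761-172000980, stood at 6.94 and 3.9 and lay 47700 bp past its end, over the 3′ end of Vangl2. A Slamf6 intron peak at chr1:171920921-171921300 stood at 4.49 and 1.42. The distal peak of Ly9 with the highest mean, chr1:171566941-171567140, lay in an intron of its neighbour Cd244a, another SLAM family gene, at 3.7 and 0.678. In replicate 2 every other peak of the Ly9 window was higher. Slamf6 and Ly9 had their highest shared peak at the promoter in both replicates, and Slamf1 did not.

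At Sh2d1a the highest distal peak, chrX:42540821-42541000, stood at 7.56 and 1.92 and lay 11580 bp past the gene in an intron of Tenm1. It stood above the gene's promoter in replicate 1 and below it in replicate 2. Over 50 overlapping pairs of distal peaks in the 7 windows the deposited height in replicate 1 was a median of 1.83 times that in replicate 2, and higher in 47. Over all distal pairs of the genome the median was 1.63, and near starts it was 1.63 in the windows (16 pairs) and 1.14 over all.

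Of the 176 member peaks of replicate 1, 37.5% were found in replicate 2, and of the 81 of replicate 2, 81.5% were found in replicate 1. Over all peaks the shares were 43.2% and 83.2%. Among member peaks at least 4 times the median height of replicate 1, 19 of 22 were found in replicate 2 (86.4%), against 98.8% of such peaks over the genome. The 3 that were not lay at chr1:171772221-171772480 in the Slamf1 gene (4.71), chr1:171827761-171827960 downstream of it (4.17), and chr1:171921301-171921640 in the Slamf6 gene (4.8). They were singled out after their values were seen. In replicate 2 the FDR list held no base of the first and second, and 6 bases of the third with a lowest rate of 0.044, so replicate 2 listed little or no cutting there.

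Cd1d1 has a near copy, Cd1d2, at chr3:86986551-86989780 within its window. The replicate 2 promoter peak of Cd1d1 matched the Cd1d2 region at 93.3% identity, and 4 member peaks in each replicate had a match of at least 90% identity over at least 80% of their length elsewhere in the genome. Of these, 3 and 4 lay in the Cd1d1 window. The promoter of Cd1d2 stood at 1.67 and 0.559, below that of Cd1d1 in both libraries. How reads that match both copies were placed is not stated, and its part in these heights was not tested.

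The wider pathway was covered by 36 further genes, of which 32 had a promoter peak in replicate 1 and 26 in replicate 2, all 26 in both. The shares over all protein-coding genes were 63.4%, 57.8% and 57.2%. Of 6 other SLAM family genes, all had a promoter peak in replicate 1, but only Cd48 (2.7 and 0.664) and Cd84 (4.31 and 1.32) had one in replicate 2. Cd244a, Slamf7, Slamf8 and Slamf9 lay between 0.287 and 0.75 in replicate 1, and these 6 are named here after their values were seen. With the highest peak at any start, Slamf1, Slamf6 and Ly9 were thus the highest of the 9 family genes in both replicates, although Cd84 lay within the spread of Ly9. At its first start Slamf6, at 3.96 and 1.24, stood below Cd84 in both. Of 4 adaptor and kinase genes, Fyn, the kinase that SAP recruits, stood at 13.1 and 14.5, and Sh2d1b1 and Sh2d1b2, which encode the SAP relatives of the EAT-2 group, had no promoter peak.

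All 12 other transcription factor genes of the list had promoter peaks in both replicates, against 57.2% of all genes, with medians of 11.1 and 7.01. The highest was Hivep3 (28.4 and 23.9), a zinc finger gene. Of these 12, Eomes, the T-box relative of Tbx21, was at 1.66 and 0.818, and Bhlhe40 at 1.49 and 1.27, the lowest in the list and named after their values were seen. The 5 genes of CD1d presentation all had peaks in both replicates, with Mttp, which helps load lipid on CD1d, at 13.8 and 11.5. Of 9 surface and cytokine genes of NKT cells, 7 and 5 had a promoter peak, with medians of 1.58 and 0.958, and Klrb1c (NK1.1) and Il4 had none in either. Zbtb16 and Tbx21 therefore lay nearer to the medians of these 9 genes than to those of the 12 other factors. Single genes of both lists went the other way. Eomes and Bhlhe40 lay near Zbtb16 and Tbx21, and Ccr7, of the 9, stood at 6.99 and 3.65, named after its values were seen.

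The tissue label was checked on marker genes, beside a share of 57.2% of all genes with a promoter peak in both replicates. All 9 thymocyte markers had promoter peaks in both replicates, with summed heights of 74.2 and 55.0. Of 7 markers of NK and innate lymphoid cells, 5 and 3 had one, with sums of 13.2 and 4.83. Prf1 (4.96 and 3.05) was the highest of these, Gzma stood at 4.38 in replicate 1 alone, and Ncr1 and Klrb1c had none. Of 5 B cell markers, 2 had one in each (6.53 and 4.43), Pax5 at 4.94 and 3.76 and Cd22 at 1.59 and 0.664, with Cd79a and Ms4a1 among those with none. Of 6 markers of macrophages and dendritic cells and of 5 of thymic epithelium, 1 each had a peak, and Csf1r and Foxn1 had none. The 4 hepatocyte markers had none. As multiples of the library median, all 7 members and the summed thymocyte, NK and B cell markers were lower in replicate 2 than in replicate 1. The fall was not alike, since the NK sum fell by a greater share than the thymocyte and B cell sums. The medians differ, at 0.625 and 0.828, so a lower multiple in replicate 2 need not be a lower deposited height. The marker sums are given here as multiples only. The part of other cell types in the heights of Zbtb16 and Tbx21 was not tested.

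The genes most like Zbtb16 in the percentiles of promoter height and window density in both libraries were Fbxw8, at a Euclidean distance of 1.36 percentile points, Il18 (3.03) and Pllp (3.08). These rest on the 11 very low peaks: over peaks at or above 0.2 of the median, Zbtb16 stood at percentile 48.4 of window density in replicate 2, and the nearest genes were Cysltr2 (2.6), Stc1 (2.61) and Hoxd8 (3.08). For Tbx21 they were Etnk2 (5.0), Xkrx (6.98) and Jazf1 (7.9), and the same 3 genes came nearest without the low peaks. Each distance is over 4 percentiles in 2 libraries, among 21938 genes.

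Short letter patterns known for T cell factors were searched on both strands in the 200 bp around each peak's midpoint. The MYB pattern CNGTTG was in 33.5% of member peaks in replicate 1 and 37.0% in replicate 2, against 27.1% and 26.8% of all peaks. The RUNX pattern TGTGGT was in 37 of 176 and 12 of 81 member peaks, against 19.1% and 16.6% of all peaks. It was in 7 of 54 and 0 of 30 peaks of the factor windows, and in 30 of 122 and 12 of 51 of the others. Of those 30 factor peaks, 11 were the very low peaks near Zbtb16. The 12 patterns searched did not split alike. SP (GGGCGG) was in 11 of 54 and 4 of 30 factor peaks, against 8 of 122 and 8 of 51. ETS (GGAAGT) was in 16 of 54 and 4 of 30, against 21 of 122 and 9 of 51. Of all member peaks, 10.8% and 14.8% held the SP pattern, against 14.4% and 24.6% of all peaks. The T-box pattern GGTGTGA, known for T-bet and Eomes, was in 0.568% and 2.47%, against 3.13% and 3.22%. These shares describe letters in open regions and no binding was measured.

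In the printed stretches, TGTGGT, read as ACCACA on the plus strand, lay wholly inside footprints of both replicates in the Slamf1 intron peak and in the Sh2d1a promoter. CAGCTG, an E protein pattern, lay so in the Slamf6 promoter. GGGCGG, read as CCGCCC on the plus strand, lay so in the distal stretch of Ly9. By contrast, CAGGTG and CAGTTG in the Slamf6 promoter and GGGCGG in the Tbx21 promoter lay outside shared footprints. A shortened CTCF core pattern, which was chosen after the sequences were seen and overlaps the longer form searched, was in the printed distal stretches of Zbtb16, Tbx21, Ly9 and Sh2d1a, which include factor genes and others alike. In these 4 it lay wholly inside shared footprints at Zbtb16, Tbx21 and Sh2d1a and partly at Ly9. It was also in the printed Tbx21 promoter, there wholly outside shared footprints. The same pattern was in 39.9% of all distal peaks found in both replicates at or above the median height, in 46.0% of those at least 4 times the median, and in 12 of 45 such member peaks at or above it (26.7%). The pattern is thus common in high distal peaks and was not more common in the members' peaks as a whole.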

How the data were processed

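DNase-seq of thymus gave, per library, 2 peak files, a footprint list and an FDR list on mm10, per the README deposited with each sample. Peak height is a value the authors deposited per peak, and it was read here as signal. Its definition is not stated in the sources used here. Heights were whole multiples of 1 step in 100% of peaks of either library (tolerance 0.05 of a step), with a ratio of 1.00 between the libraries' steps. The deposited p-value type columns hold the FDR of the cut rate (at most 0.05) and, in the footprint list, the constant 0.01. Aligner, callers, versions, read numbers and any correction for the sequence preference of DNase I are not given in the sources used here, so depth is unknown. Replicate 1 had 132737 peaks (median height 0.625) and replicate 2 had 69798 (0.828). A multiple of the median therefore depends on how many low peaks each library lists. Placement of CAST/EiJ reads was not measured.

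The larger peak file per library was used, and the smaller (93790 and 46467 peaks) was the stricter alternative. Genes came from GENCODE M21, and sequences from RefSeq's GRCm38.p6 after chromosome lengths were compared. Of the 7 members, 3 were in the RefSeq promoter table, so all sequences were read from the genome. Peaks over 1 kb from every protein-coding start were called distal. Python 3.11.15, pysam 0.24.0, numpy 2.4.6 and blastn 2.17.0 were used, and the scripts were tested on simulated data. With 1 group, no test was run.

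The members, lists and patterns were chosen with earlier results of these data known. Named were all members, the 4 pathway genes with the highest mean promoter height and up to 4 without a promoter peak (at most 2 of each per subgroup), 3 nearest genes per factor, and up to 3 highest shared distal peaks per member. Some items this rule names are not reported here.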

Additional observations from a re-analysis of the deposited data

How the results depend on the processing

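No paired analysis was possible because there is 1 group. No result changed direction in the mean over the replicates. The peak density ratio of the factor genes to the others (0.799) moved to 0.245 in gene bodies alone, to 0.376 with peaks at or above the library median height and to 0.632 with peaks at or above 0.2 of it. The footprint ratio (0.632) moved to 0.284 in gene bodies, 0.552 with flanks of 25 kb, 0.945 with flanks of 100 kb and 0.732 over distal footprints. In replicate 2 alone, flanks of 100 kb gave a footprint ratio of 1.09 and distal peaks a peak ratio of 1.1, over equality. The latter was 0.653 (mean 0.663) without distal peaks under 0.2 of the median, which are the 11 very low peaks near Zbtb16. The ratio of the lowest other promoter to the higher factor promoter (3.73) moved to 2.54 with first starts only. With either replicate left out, the ranges were 0.686 to 0.912 for peaks, 0.596 to 0.669 for footprints, 3.56 to 3.9 for that promoter ratio and 37.5% to 81.5% for the share of member peaks found in the other library, and the count of members with a promoter peak was 7. With the stricter file, or with peaks at or above the median only, 5 members had a promoter peak in both. Taking the highest 69798 peaks of replicate 1, to equal replicate 2, gave a peak ratio of 0.421 there, and this choice does not apply to footprints. The height limits, the first start, the 1 kb promoter window at single genes, the promoter ratio itself and the shortened CTCF pattern were chosen after seeing the data. The cause of these shifts was not tested.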
